A study of Mus musculus with 24 samples.

Results

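Brain endothelial cells collected at midday were compared with those collected at midnight, in 8 of the 24 libraries of the series. The members were the 4 libraries of ZT6 and the 4 of ZT18 (zeitgeber time, in hours after lights on, with lights off at ZT12), 2 control and 2 mutant at each time. All mice were on a C57BL/6J background, fed ad libitum and kept in 12 h of light and 12 h of dark. Every mouse carried Bmal1fl/fl, in which an exon of the clock gene Bmal1 (listed as Arntl) is flanked by recombination sites. The mutants also carried Tie2cre, a Cre recombinase driven by the Tie2 (Tek) promoter, which is active in endothelium and also in blood cells. Brains were minced and digested with collagenase, myelin was removed with beads, cells labelled for CD90 (a marker of T cells, neurons and fibroblasts) were taken out with magnetic beads, and cells positive for CD31 (Pecam1) were then sorted by FACS from a single mouse per library. Age is not given in the sources used here. The 8 libraries carried 8 consecutive library numbers and 1 i5 index, so ZT6 and ZT18 were compared within 1 library series, and each held between 6136404 and 6217357 deposited reads.

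In the molecular clock, BMAL1 (ARNTL) and CLOCK drive transcription of the Period and Cryptochrome repressors, of the REV-ERB receptors Nr1d1 and Nr1d2, which in turn repress Arntl, and of output factors such as Dbp, Tef and Hlf. In mammals most tissues hold such a clock, and body temperature, feeding and hormones that follow the light cycle also reach cells whose own clock is broken. Heat-shock genes encode chaperones that fold proteins and are induced through the factor HSF1, and mice, being nocturnal, are warmer and more active at night.

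The libraries were checked against cell type markers before the comparison. The summed level of 18 endothelial markers lay between 27693 and 29284 CPM (counts scaled to a common library total) in the 8 libraries, above the 18157 to 25759 of the other 16, and Cdh5, the endothelial cadherin, had 7150 to 8342 reads. Microglial markers summed to 202 to 338 CPM against 1815 to 4953 in the other 16, and blood leukocyte markers to 13.6 to 28.2 against 99 to 528, with the T cell marker Cd3e at 0 or 1 read. Markers of pericytes and smooth muscle, in contrast, summed to 2570 to 4303 CPM against 1733 to 3254, and those of fibroblasts to 126 to 194 against 115 to 189, and those of red blood cells and of choroid plexus overlapped widely, so the 8 libraries were separated from the other 16 by lower microglial and leukocyte markers and higher endothelial markers. Mitochondrially encoded reads made up 2.68% to 3.90% of the reads against 5.78% to 17.4% in the other 16, and so separated them as well. Markers of 3 further cell types were lower in the 8 libraries with a narrow overlap. Astrocyte markers summed to 1557 to 2290 CPM against 2202 to 4070. Oligodendrocyte markers summed to 784 to 1296 against 1274 to 3657, and neuron markers to 68.8 to 124 against 117 to 358. Of 13 library properties compared between ZT6 and ZT18, oligodendrocyte markers separated the times, with sums of 784 to 1047 CPM at ZT6 and 1071 to 1296 at ZT18 (two-sided exact permutation test of 4 against 4 libraries, p = 0.0286, the smallest this design allows). Adjusted over the 13 it was 0.371, which is as low as 1 fully separated property can go, so the adjusted values do not bear on whether the times differed. In bulk samples, fewer cells of a type and less RNA per cell cannot be told apart.

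**Figure D1:**
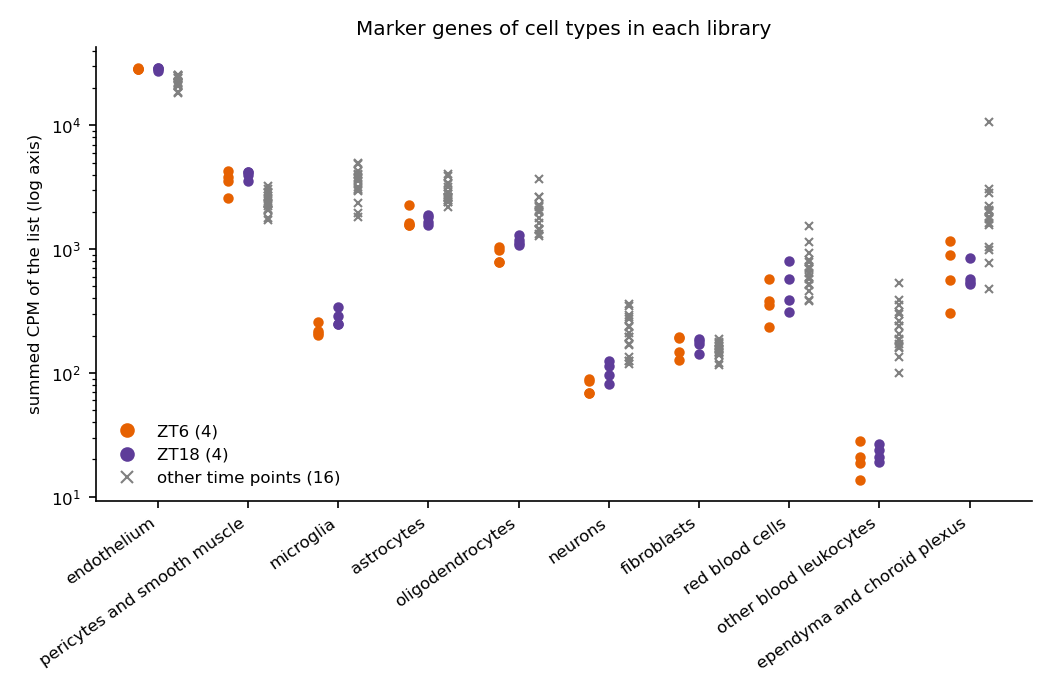
Summed CPM of 10 marker lists (log axis) in each of the 24 libraries, with a point or cross per library: 4 of ZT6, 4 of ZT18 and 16 of the other time points. Endothelial markers of the 8 libraries sit above those of the other 16, microglial and leukocyte markers sit below, and ZT6 and ZT18 overlap in 9 of the 10 lists, all but oligodendrocytes.

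Mice of both sexes were used, and sex was not balanced between the times. Xist, the RNA of the inactive X chromosome, had 6230 to 7901 reads in 4 libraries and 4 or fewer in the other 4, which left 1 library with Xist at ZT6 (control replicate 1) and 3 at ZT18 (both controls and mutant replicate 1). A fit with sex as a covariate, added after the data were seen, is therefore given beside the main results. The mutant ZT6 replicate 1 library also stood apart from the other 7 on the first principal component (22.3% of the variance).

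Between ZT6 and ZT18, with genotype as a factor, 9 of 15493 genes passed an adjusted p of 0.05 (edgeR quasi-likelihood test, Benjamini-Hochberg), which is 0.0581% of those tested. Dbp, Nr1d1, Nr1d2 and Fam214a were lower at ZT18. The chaperone genes Hspa1a, Hspa1b and Hsp90aa1, the cell cycle inhibitor Cdkn1a and the plasminogen activator Plat were higher. At an unadjusted p under 0.05 there were 412 genes higher at ZT18 (2.66%) and 405 lower (2.61%), together 817 (5.27%). The median log2 difference over all genes was -0.01. Counting genes in which both ZT18 libraries lay above both ZT6 libraries in each genotype gave 403 (2.6%), and the reverse gave 515 (3.32%). Of the 9 genes, 4 were among the former and 4 among the latter, and Hspa1b was in neither. With sex as a covariate 5 genes passed, and 4 of them were among these 9 (Dbp, Nr1d1, Nr1d2 and Cdkn1a).

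**Figure D2:**
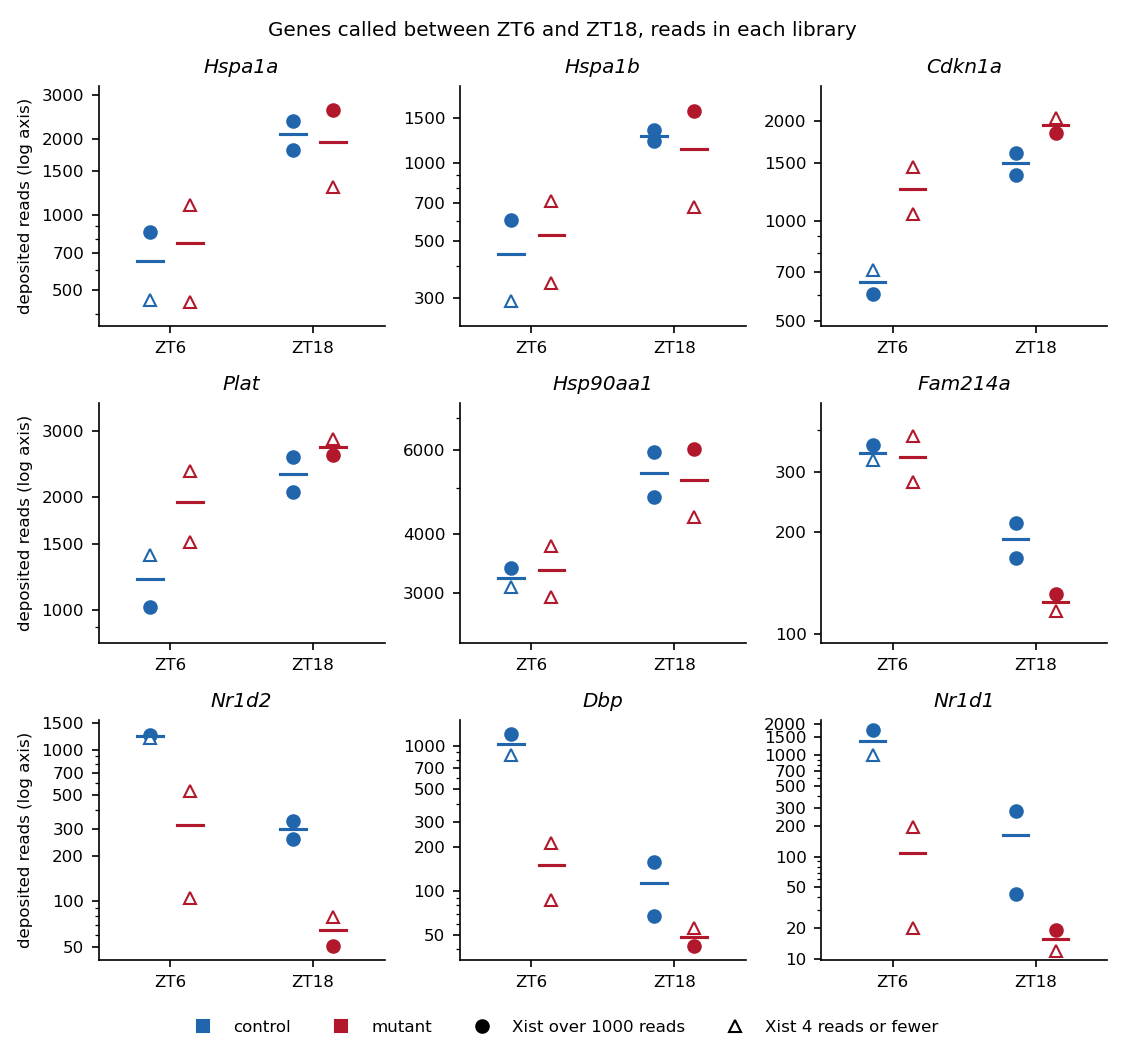
Deposited reads (log axis) of the 9 genes past the threshold, with a point per library and a bar at the mean of the 2 libraries of a genotype and time; filled circles mark libraries with Xist and open triangles those without. Hspa1a, Hsp90aa1 and Fam214a separate all 4 ZT18 libraries from all 4 ZT6 libraries, whereas in Dbp, Nr1d1 and Nr1d2 mutant ZT6 and control ZT18 libraries overlap.

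The targeted gene came first among the clock activators. Arntl had 99 and 57 reads in control ZT6 libraries and 267 and 261 in control ZT18 libraries. In mutants it had 81 and 276 at ZT6 and 286 and 231 at ZT18. Mutant ZT6 replicate 1 was thus as low as the controls of that time while replicate 2 was at the ZT18 level. Reads outside the deleted exon still count toward the gene, so these totals do not check the deletion. The log2 difference was 1.14 ± 0.31 (SE) over both genotypes (edgeR adjusted p = 0.303), with 1.77 ± 0.42 in controls (adjusted p = 0.288) and 0.55 ± 0.40 in mutants (adjusted p = 0.858). Npas2, a paralog of Clock, had 1 and 10 reads in control ZT6 libraries, 3 and 305 in control ZT18, 0 and 229 in mutant ZT6 and 170 and 331 in mutant ZT18, so libraries of one group differed by more than the times did. Clock itself had 1020 to 1361 reads and a log2 difference of -0.07 ± 0.12 (edgeR adjusted p = 1). Rora, Rorb and Arntl2 did not pass either, with Rora at -0.09 ± 0.15, and Arntl2 had 28 reads or fewer in each library. Of these 6 activators 0 were called (edgeR and DESeq2), and 2, Arntl and Npas2, had an unadjusted p under 0.05 (against 5.27%).

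Among the repressors Nr1d1 and Nr1d2 were called. Nr1d1 had 1765 and 990 reads in control ZT6 libraries and 43 and 282 in control ZT18, against 20 and 198 in mutant ZT6 and 19 and 12 in mutant ZT18. Both ZT6 libraries lay above both ZT18 libraries in each genotype, but 1 mutant ZT6 library, at 20, was 1 read above the higher mutant ZT18 library. The fitted level was 7.9-fold lower at ZT18 (log2 difference -2.98 ± 0.45, edgeR adjusted p = 0.00117). The size of that difference depended on the fit, with -3.87 without control ZT18 replicate 2, -1.53 with the covariate of other cell type markers and -2.22 with that of mitochondrially encoded genes. Nr1d1 lies at chr11:98767932-98775333 (GRCm38, minus strand), and its exons overlap those of Thra on the other strand. The library kit marks strand, but whether the counting used it is not stated in the sources used here.

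Nr1d2, the paralog of Nr1d1, at chr14:18204054-18239127 on the minus strand, had 1252 and 1199 reads in control ZT6 libraries, 338 and 258 in control ZT18, 534 and 105 in mutant ZT6 and 51 and 79 in mutant ZT18. Each genotype was separated by time, and the control ZT18 libraries lay between the 2 mutant ZT6 libraries. It was 4.45-fold lower at ZT18 (log2 difference -2.15 ± 0.29, edgeR adjusted p = 0.000342). Without mutant ZT6 replicate 1 the difference was -1.58.

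The other 8 repressors did not pass the threshold with edgeR, while DESeq2 called Cry1 (adjusted p = 0.0150). Per3, a Period gene, had 425 and 389 reads in control ZT6 libraries, 223 and 60 in control ZT18, 277 and 42 in mutant ZT6 and 52 and 47 in mutant ZT18 (log2 difference -1.60 ± 0.39, edgeR adjusted p = 0.201). Cry1 and Cry2, the cryptochromes, were on the opposite side, with log2 differences of 0.96 ± 0.21 (edgeR adjusted p = 0.103) and 0.49 ± 0.18 (adjusted p = 0.720). In both, both ZT18 libraries exceeded both ZT6 libraries in each genotype, from 116 and 187 to 276 and 501 reads of Cry1 in controls and from 365 and 473 to 622 and 633 in mutants. Ciart, a repressor of CLOCK-BMAL1 activity, differed by -0.93 ± 0.41 (edgeR adjusted p = 0.893). Per1, Per2, Bhlhe40 and Bhlhe41 lay between -0.41 and 0.13 on the log2 scale. Of the 10 repressors, 2 were called lower, and 6 had an unadjusted p under 0.05 (4 lower and 2 higher, against 5.27% of all genes), with a list median of -0.29.

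Dbp, a PAR bZIP output factor, at chr7:45705088-45710203 on the plus strand, had the smallest p of all genes. In controls it had 1197 and 861 reads at ZT6 and 68 and 159 at ZT18, and in mutants 87 and 216 at ZT6 and 42 and 56 at ZT18. The times separated within each genotype, and the mutant ZT6 libraries were nearer to the ZT18 libraries than to the control ZT6 libraries. Over both genotypes Dbp was 5.53-fold lower at ZT18 (log2 difference -2.47 ± 0.31, edgeR adjusted p = 0.000198), and the difference was -1.85 with the cell type marker covariate. Its exons overlap Sphk2 on the other strand, as those of Hspa1a, Cdkn1a and Tef overlap predicted antisense genes.

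Of the 12 output genes, Dbp was the 1 called by edgeR, and 5 had an unadjusted p under 0.05 (against 5.27% of all genes). DESeq2 also called Tef (adjusted p = 0.0187). Tef, another PAR bZIP factor, differed by -0.96 ± 0.21 (edgeR adjusted p = 0.103), the phosphatase gene Cdc25b by -1.54 ± 0.53 (adjusted p = 0.632) and the tetraspanin gene Tspan4 by -0.64 ± 0.28 (adjusted p = 0.882). Nfil3, which binds the same sites as Dbp but represses, had 4 and 21 reads in control ZT6 libraries, 77 and 102 in control ZT18, 43 and 69 in mutant ZT6 and 110 and 92 in mutant ZT18 (log2 difference 1.78 ± 0.48, edgeR adjusted p = 0.303). Its ZT18 libraries were above all ZT6 libraries. Hlf, the third PAR bZIP factor, differed by -0.45 ± 0.23, and Nampt, Wee1, Herpud1, Tsc22d3, Usp2 and Lonrf3 lay between -0.38 and 0.42. Csnk1e, a kinase of the Period proteins, had the smallest p of the 11 clock kinases and ubiquitin ligases measured (log2 difference 0.16 ± 0.13, edgeR adjusted p = 0.996), and 0 of them were called.

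The comparison was then made within each genotype. In controls 4 genes passed the threshold (0.0258%) and 525 had an unadjusted p under 0.05 (3.39%). Dbp was lower at ZT18 in controls by 3.17 ± 0.37 on the log2 scale (adjusted p = 0.000122), with a difference of -2.70 without control ZT18 replicate 1 and of -3.89 without control ZT18 replicate 2. Cdkn1a was 2.30-fold higher (adjusted p = 0.00610). Tef, at chr15:81802421-81826863 on the plus strand, had 1032 and 926 reads in control ZT6 libraries and 368 and 317 in control ZT18 (log2 difference -1.50 ± 0.25, adjusted p = 0.0188), and its mutant libraries, 407 and 245 at ZT6 and 276 and 222 at ZT18, overlapped. Cdk5rap1, an enzyme that modifies mitochondrial tRNA, at chr2:154335380-154373010 on the minus strand, had 82 and 48 reads in control ZT6 libraries and 0 and 1 in control ZT18, against 35 and 53 and then 22 and 36 in mutants (control log2 difference -6.69 ± 1.18, adjusted p = 0.0262). With so few reads at ZT18, that fitted value depends on the prior count, and it ran from -9.01 to -5.86 when 1 library was left out. Of 13 pericyte and smooth muscle markers edgeR called 0 in controls, 6 had an unadjusted p under 0.05 there (against 3.39%), and their list median was 0.41; their part in the control calls was not tested.

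In mutants 0 genes passed the threshold (lowest adjusted p = 0.232, edgeR), while 1021 had an unadjusted p under 0.05 (6.59%). DESeq2, an alternative, called 18 in mutants, Dbp at a log2 difference of -1.62 (adjusted p = 0.0472) and the immediate-early gene Atf3 at 0.87 (adjusted p = 0.0271) among them. A gene called in controls and not in mutants is not shown to differ between them, and the interaction of time with genotype called 0 genes (lowest adjusted p = 0.787, edgeR), with 693 at an unadjusted p under 0.05 (4.47%) and 0 called by DESeq2.

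The Dbp difference was 1.56 smaller on the log2 scale in mutants than in controls (95% interval 0.48 to 2.64, edgeR adjusted p = 0.991), and that of Tef 1.11 smaller (0.37 to 1.84). For Nr1d1 the interval of the same quantity ran from -1.73 to 2.34 and for Nr1d2 from -1.49 to 0.90, which leaves differences in either direction possible. The lowest interaction p was that of Ttr, the transthyretin of choroid plexus, with a ZT18 minus ZT6 difference of -0.87 ± 0.23 in controls and 0.68 ± 0.23 in mutants. Ttr is itself a choroid plexus marker and made up 89.0% to 95.7% of the summed choroid plexus and ependymal markers. The other markers of that list summed to 86.0 and 55.8 CPM in control ZT6 libraries, 22.7 and 34.0 in control ZT18, 38.2 and 33.6 in mutant ZT6 and 46.7 and 56.4 in mutant ZT18, and their part in the Ttr result was not tested.

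**Figure D3:**
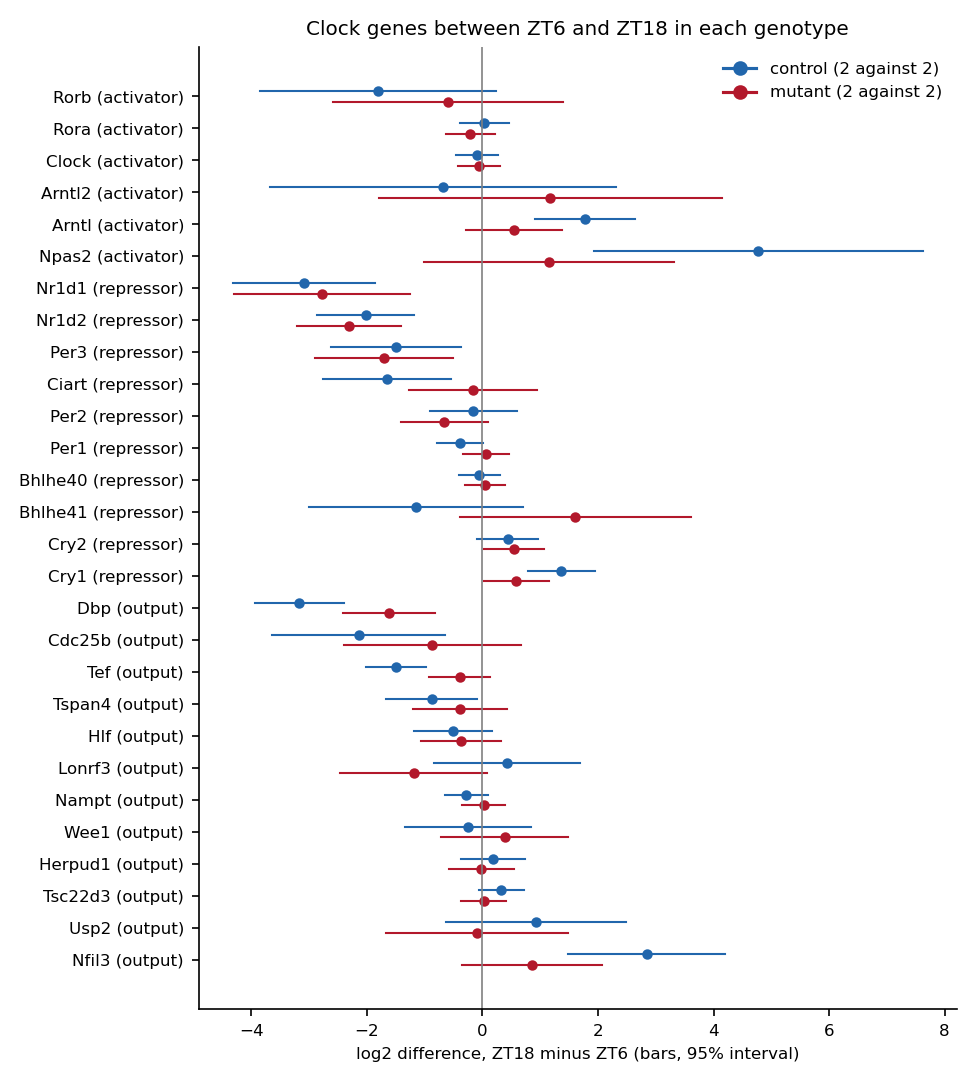
Log2 difference of ZT18 minus ZT6 for 28 clock activators, repressors and output genes, in control and in mutant (2 against 2 libraries each, bars are 95% intervals). Dbp, Nr1d1, Nr1d2 and Per3 lie below 0 in both genotypes, and Arntl, Npas2, Nfil3 and Cry1 lie above 0 with the control value farther from 0 than the mutant value.

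Among the heat-shock genes most members had more reads at ZT18 in both genotypes. Of 20 members tested, 3 were called higher, 12 had an unadjusted p under 0.05 and all of these 12 were higher at ZT18 (against 2.66% of all genes in that direction), and 17 lay above 0. The list median was 0.52 over both genotypes, 0.50 in controls and 0.47 in mutants, where the median over all genes was -0.01. The 20 genes summed to 4842 to 7236 CPM at ZT6 and 6577 to 10075 at ZT18, so the ranges of the sum overlapped, and the highest ZT6 library was mutant replicate 1. With sex in the fit 0 of the 20 were called and 8 had an unadjusted p under 0.05, as described below.

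Hspa1a and Hspa1b encode near-identical inducible HSP70 proteins and lie next to each other at chr17:34969190-34972156 and chr17:34956436-34959238, both on the minus strand. Their promoters are printed because they are the called heat-shock genes in the promoter table used, and because the sequences show how little separates them: of 300 bases around the start of each gene, 296 were the same. Of the 50-base words of the Hspa1a transcript, 58.8% also occur in Hspa1b, so the split of reads between both genes is uncertain. The windows are from RefSeq (GRCm38.p6), 5′ to 3′, and capitals mark the heat-shock core GAANNTTC, searched on both strands, which occurred once in each and in 7.86% of the 32851 promoters in the table.
Hspa1a, chr17:34972107-34972406, minus strand: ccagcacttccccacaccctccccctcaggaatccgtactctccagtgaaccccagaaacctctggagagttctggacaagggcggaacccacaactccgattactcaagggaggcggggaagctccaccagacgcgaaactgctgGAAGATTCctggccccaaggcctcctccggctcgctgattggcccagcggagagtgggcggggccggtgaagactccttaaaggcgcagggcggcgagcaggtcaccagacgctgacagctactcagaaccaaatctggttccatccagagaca
Hspa1b, chr17:34959189-34959488, minus strand: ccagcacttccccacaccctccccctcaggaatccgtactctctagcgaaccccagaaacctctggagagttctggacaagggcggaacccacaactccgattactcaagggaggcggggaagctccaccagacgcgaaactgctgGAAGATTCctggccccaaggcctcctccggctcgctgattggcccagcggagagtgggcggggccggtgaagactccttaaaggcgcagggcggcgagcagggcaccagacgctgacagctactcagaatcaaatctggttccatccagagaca

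Hspa1a had 853 and 458 reads in control ZT6 libraries, 2373 and 1810 in control ZT18, 1091 and 447 in mutant ZT6 and 2614 and 1289 in mutant ZT18. All 4 ZT18 libraries exceeded all 4 ZT6 libraries. The gene was 2.85-fold higher at ZT18 (log2 difference 1.51 ± 0.23, edgeR adjusted p = 0.00117). Hspa1b had 602 and 291, 1217 and 1345, 712 and 342, and 1598 and 679 reads in the same order, where the lower mutant ZT18 library fell just under the higher mutant ZT6 library. It was 2.49-fold higher (log2 difference 1.32 ± 0.23, edgeR adjusted p = 0.0139). Summed, both genes gave 749 to 1803 reads at ZT6 and 1968 to 4212 at ZT18, again without overlap.

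Hsp90aa1, the inducible HSP90, at chr12:110690605-110702728 on the minus strand, had 3386 and 3084 reads in control ZT6 libraries, 5947 and 4772 in control ZT18, 3774 and 2940 in mutant ZT6 and 6021 and 4335 in mutant ZT18. The 2 times did not overlap in any pairing of libraries. Its level was 1.61-fold higher at ZT18 (log2 difference 0.68 ± 0.13, edgeR adjusted p = 0.0187).

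Of the other heat-shock genes, named here after their values were seen, 9 had an unadjusted p under 0.05. Hsph1, an HSP110 that helps HSP70 exchange nucleotide, differed by 0.99 ± 0.23 (edgeR adjusted p = 0.161), the small chaperone gene Hspb1 by 0.74 ± 0.19 and the constitutive HSP70 gene Hspa8 by 0.60 ± 0.14. The collagen chaperone gene Serpinh1, at 0.60 ± 0.16, the HSP40 genes Dnajb1, at 0.51 ± 0.14, and Dnaja1, at 0.52 ± 0.15, and the constitutive HSP90 gene Hsp90ab1, at 0.45 ± 0.11 (DESeq2 adjusted p = 0.0480), were similar. Ahsa1, an activator of HSP90, and the mitochondrial chaperone gene Hspd1 completed the 9, at 0.63 ± 0.20 and 0.53 ± 0.18. Hsf1, the regulator itself, was at 0.01 ± 0.25, and Hspa4, Cryab and Hspe1 lay below 0, between -0.24 and -0.03.

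The heat-shock genes were also compared between dark and light in the other 16 libraries. There, dark (ZT14 and ZT22) minus light (ZT2 and ZT10) was above 0 for 20 of 20 heat-shock genes, with a median of 0.41 against 0.01 over all genes, and 13 of the 20 had an unadjusted p under 0.05 and were higher in the dark, against 388 genes (2.5%) overall. No gene passed the adjusted threshold there (0 called, 694 at an unadjusted p under 0.05, lowest adjusted p = 0.876, edgeR). Of those 16 libraries, 5 of 8 in the light and 4 of 8 in the dark had Xist. Markers of choroid plexus and ependyma (5 of 5 above 0, median 1.07), red blood cells (6 of 6, median 0.38) and oligodendrocytes (8 of 10, median 0.27), and mitochondrially encoded genes (12 of 13), also lay above 0 in the dark there, and their part was not tested. For the called genes the differences in these 16 libraries were 0.81 ± 0.24 for Hspa1a, 0.94 ± 0.31 for Hspa1b, 0.42 ± 0.16 for Hsp90aa1, 0.52 ± 0.19 for Plat, 0.38 ± 0.24 for Cdkn1a, -1.32 ± 0.42 for Nr1d1 and -0.89 ± 0.52 for Dbp, all on the side seen between ZT6 and ZT18. Nr1d2, at -0.21 ± 0.39, and Fam214a, at 0.02 ± 0.15, were near 0. This contrast pools ZT2 with ZT10 and ZT14 with ZT22, so it is also near 0 for a gene high at both ZT10 and ZT14. Control libraries had 281 and 346 reads of Nr1d2 at ZT2, 883 and 1067 at ZT10, 872 and 910 at ZT14, and 100 and 158 at ZT22. For these 2 genes the contrast therefore does not show whether the difference between ZT6 and ZT18 recurred.

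With sex in the fit, the clock calls and that of Cdkn1a stayed while the 3 heat-shock calls were lost. Hspa1a was then at 1.01 ± 0.23 (edgeR adjusted p = 0.239), Hspa1b at 0.72 ± 0.23 (adjusted p = 1) and Hsp90aa1 at 0.51 ± 0.15 (adjusted p = 0.818). The list median was 0.40, and 8 of 20 members had an unadjusted p under 0.05, as did 567 of the 15493 genes in that fit. Of the 4 libraries with Xist, 3 were of ZT18, so sex and time could be separated only in part.

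Cirbp and Rbm3, RNA-binding proteins induced by mild cold, were on the other side of 0 and were not called. Cirbp had 136 and 165 reads in control ZT6 libraries, 50 and 95 in control ZT18, 64 and 129 in mutant ZT6 and 47 and 80 in mutant ZT18 (log2 difference -0.82 ± 0.34, edgeR adjusted p = 0.838). Mutant libraries of the 2 times overlapped. Rbm3 differed by -0.36 ± 0.20 (adjusted p = 0.955), and in the other 16 libraries dark minus light was -0.51 ± 0.36 for Cirbp and -0.33 ± 0.14 for Rbm3.

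**Figure D4:**
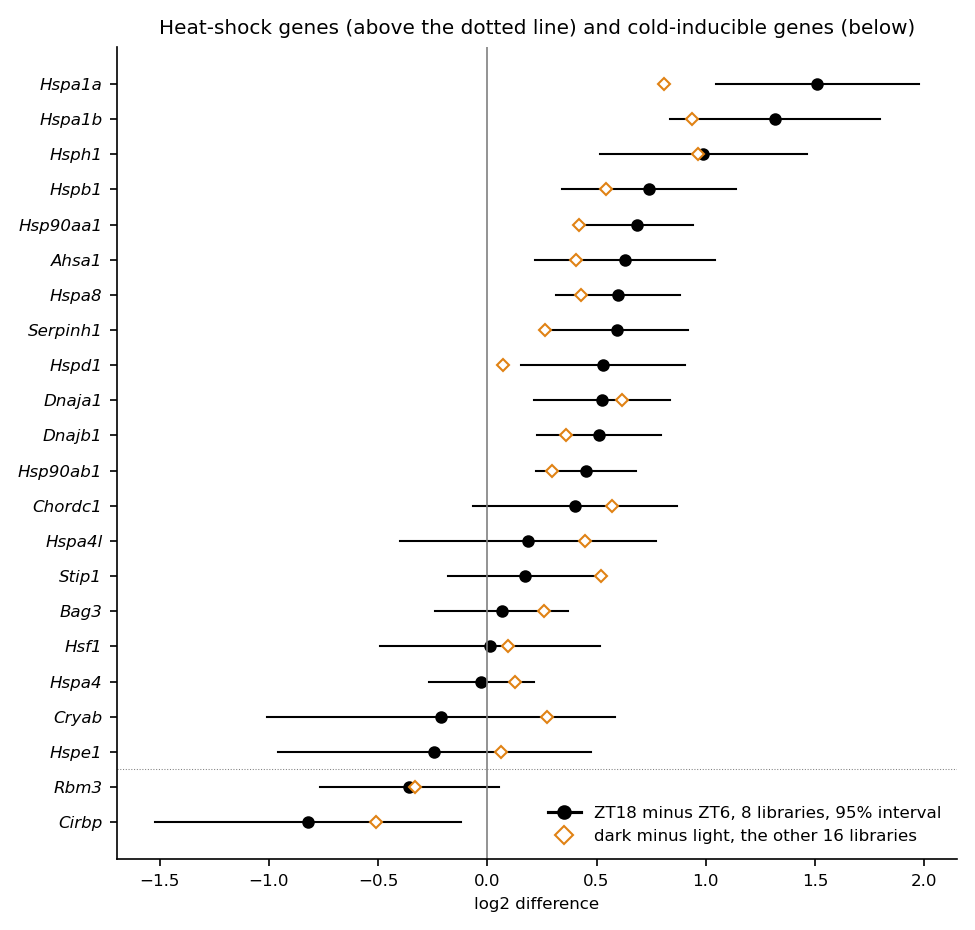
Log2 difference of 20 heat-shock genes and 2 cold-inducible genes, as ZT18 minus ZT6 in the 8 libraries (points with 95% intervals) and as dark minus light in the other 16 libraries (diamonds). Of the heat-shock genes 17 points and 20 diamonds lie above 0, and both cold-inducible genes lie below 0 in both.

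Cdkn1a, which encodes the cell cycle inhibitor p21 and was on the list of glucocorticoid-responsive genes, is at chr17:29090976-29100727 on the plus strand. It had 601 and 710 reads in control ZT6 libraries, 1377 and 1609 in control ZT18, 1050 and 1453 in mutant ZT6 and 1846 and 2046 in mutant ZT18. The higher mutant ZT6 library lay within the range of the control ZT18 libraries, and within each genotype the times were apart. It was 1.89-fold higher at ZT18 (log2 difference 0.92 ± 0.14, edgeR adjusted p = 0.00117). The other 19 members of that list were not called, Tsc22d3 among them at 0.17 ± 0.13, and the list median was 0.07.

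Plat, the tissue plasminogen activator that starts fibrin breakdown, is at chr8:22757727-22782844 on the plus strand. Its reads were 1019 and 1403 in control ZT6 libraries, 2064 and 2551 in control ZT18, 1518 and 2349 in mutant ZT6 and 2592 and 2844 in mutant ZT18. Only the higher mutant ZT6 library overlapped the ZT18 range. It was 1.65-fold higher at ZT18 (log2 difference 0.72 ± 0.14, edgeR adjusted p = 0.0338), the weakest of the 9 calls. Of 15 haemostasis genes tested, Plat was the 1 called by edgeR and 5 had an unadjusted p under 0.05 (against 5.27% of all genes). Thrombomodulin (Thbd), named after its value was seen, had 2191 to 2595 reads in the ZT6 libraries and 2709 to 3579 at ZT18 (log2 difference 0.44 ± 0.11, edgeR adjusted p = 0.222, DESeq2 adjusted p = 0.00348).

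Fam214a, at chr9:74952884-75032468 on the plus strand, was the remaining gene called lower at ZT18. It had 361 and 326 reads in control ZT6 libraries, 168 and 213 in control ZT18, 281 and 385 in mutant ZT6 and 131 and 117 in mutant ZT18. All ZT6 libraries lay above all ZT18 libraries, a 2.18-fold difference (log2 difference -1.12 ± 0.21, edgeR adjusted p = 0.0239). With sex in the fit neither Plat (0.87 ± 0.17, adjusted p = 0.0859) nor Fam214a (-1.21 ± 0.27, adjusted p = 0.212) passed, although both values were farther from 0.

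The calls of Hspa1b, Hsp90aa1, Plat and Fam214a were near the threshold, with log2 differences that stayed between 1.08 and 1.62, 0.59 and 0.79, 0.59 and 0.89, and -1.25 and -0.99 when 1 library was left out. Leaving out each of the 8 in turn lost the call of Hspa1b in 4 cases, of Hsp90aa1 in 5, and of Plat and Fam214a in 6 each, with edgeR adjusted p up to 0.237, 0.230, 0.352 and 0.148, whereas Dbp, Nr1d1, Nr1d2, Hspa1a and Cdkn1a passed each time. Without control ZT6 replicate 2 or control ZT18 replicate 1 all 4 were lost. Hspa1b was also lost without control ZT18 replicate 2 or mutant ZT18 replicate 1, and Hsp90aa1 without control ZT6 replicate 1, mutant ZT6 replicate 2 or mutant ZT18 replicate 1. Plat was also lost without control ZT6 replicate 1, control ZT18 replicate 2, mutant ZT6 replicate 1 or mutant ZT18 replicate 2, and Fam214a without control ZT6 replicate 1, mutant ZT6 replicate 2 or either mutant ZT18 library. DESeq2 did not call Nr1d1, Hspa1a or Hspa1b, and limma-voom called 0 genes (889 at an unadjusted p under 0.05). In the fit to all 24 libraries Cdkn1a, Hspa1a, Hspa1b, Hsp90aa1 and Plat were not called, and with the cell type marker covariate Fam214a was not, at a log2 difference of -1.01. A filter of 5 reads in 2 of the 8 libraries lost Hsp90aa1, Plat, Fam214a and Hspa1b.

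Promoters of the called clock genes were searched on both strands for 3 motifs: the E-box CACGTG, which CLOCK-BMAL1 binds and 7.15% of all promoter windows hold, the D-box TTANGTAA of the PAR bZIP factors (2.32%), and TAGGTCA, a core of the ROR and REV-ERB sites (2.61%). Of the 7 called clock and heat-shock genes 6 were in the table. None of the 3 motifs was in the window of Dbp, Nr1d1 or Nr1d2, which says only that these letters are not within those 300 bases. Both windows of Tef, called in controls, held 1 E-box, and they are shown with it in capitals.
Tef, chr15:81802423-81802722, plus strand: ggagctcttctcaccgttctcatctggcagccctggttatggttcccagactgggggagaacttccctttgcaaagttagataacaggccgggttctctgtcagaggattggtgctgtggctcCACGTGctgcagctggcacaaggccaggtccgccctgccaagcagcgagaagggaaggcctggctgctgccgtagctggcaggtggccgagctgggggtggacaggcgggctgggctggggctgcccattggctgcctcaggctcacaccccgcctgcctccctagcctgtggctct
Tef, chr15:81811164-81811463, plus strand: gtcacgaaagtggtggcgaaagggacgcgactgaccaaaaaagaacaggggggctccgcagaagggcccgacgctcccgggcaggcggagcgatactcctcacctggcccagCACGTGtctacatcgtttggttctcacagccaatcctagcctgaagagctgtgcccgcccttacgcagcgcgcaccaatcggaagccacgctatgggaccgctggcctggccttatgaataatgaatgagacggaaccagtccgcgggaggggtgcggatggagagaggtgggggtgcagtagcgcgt

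Genes outside the clock and the chaperones were examined by list, and edgeR called no member of them other than Cdkn1a and Plat. DESeq2 also called Thbd, Atf3, Slc22a8, Slc7a5, Ifit2 and Mal over both genotypes, with adjusted p from 0.00348 to 0.0480. Immediate-early genes are switched on within minutes when a cell is stimulated. Of 26 tested, 11 had an unadjusted p under 0.05, all 11 higher at ZT18 (against 2.66%), with a median of 0.25. Under the alternatives that count ran from 0 to 15, with 8 under the sex covariate. It was 3 without mutant ZT6 replicate 2, 4 without control ZT18 replicate 1 or mutant ZT18 replicate 2, 5 with the cell type marker covariate and 0 in the fit to all 24 libraries, and it was 15 without mutant ZT6 replicate 1, 14 with the mitochondrial covariate and 13 without control ZT18 replicate 2 or with the replicate number as a block. Atf3 had the smallest p (log2 difference 0.62 ± 0.15, edgeR adjusted p = 0.161), and Jun, at 0.29 ± 0.10, and Dusp1, at 0.38 ± 0.13, named after their values were seen, were on the same side. In the other 16 libraries 3 of the 26 had an unadjusted p under 0.05, all higher in the dark (against 2.5%). These genes also respond to tissue dissociation, and their summed level was 13884 to 17722 CPM at ZT6 and 14947 to 19445 at ZT18. The part of cell handling in these differences was not tested.

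Cytosolic ribosomal protein genes lay above 0 in 73 of 86 cases (against 7601 of all 15493 genes), with a median of 0.14. Of them 12 had an unadjusted p under 0.05, all 12 higher at ZT18 (against 2.66% of all genes in that direction). Rpl37, at 0.46 ± 0.14, had the smallest p. In the other 16 libraries 26 of the 86 lay above 0 (against 7991 of all 15493 genes). Of 18 endoplasmic reticulum chaperone genes 2 had an unadjusted p under 0.05 (against 5.27% of all genes), and Hspa5 (BiP) was at 0.40 ± 0.12 (edgeR adjusted p = 0.492). Of 18 ATF4 target genes 3 did, with a median of 0.34, and of 20 aminoacyl-tRNA synthetases 2 did, with Cars at 0.69 ± 0.22. Proteasome subunits had 3 of 38 (Psmd7 at 0.39 ± 0.15) and nuclear-encoded respiratory chain genes 3 of 79 (Ndufs7 at 0.60 ± 0.24). All of these were higher at ZT18 (against 2.66% of all genes in that direction). Of the proteasome subunits 26 of 38 lay above 0, with a median of 0.15, and of the respiratory chain genes 58 of 79, with a median of 0.16. In the other 16 libraries 9 of 38 and 50 of 79 lay above 0.

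Abcb1a, the main p-glycoprotein gene of mouse brain endothelium, had 12462 to 14052 reads at ZT6 and 13304 to 14023 at ZT18, with a log2 difference of 0.03 ± 0.09 and a 95% interval from -0.16 to 0.21. Abcg2, the breast cancer resistance protein, was at 0.11 ± 0.11 (interval -0.11 to 0.33). Of 8 efflux pumps tested, Abcc6 had the smallest p, with 384 to 475 reads at ZT6 and 168 to 335 at ZT18 (log2 difference -0.74 ± 0.19, edgeR adjusted p = 0.269).

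Slc7a5, the large amino acid transporter LAT1, had 6822 to 7589 reads at ZT6 and 5145 to 6520 at ZT18, without overlap (log2 difference -0.30 ± 0.10, edgeR adjusted p = 0.599). DESeq2 put Slc7a5 past the threshold (adjusted p = 0.0480). Slc22a8, the organic anion transporter OAT3, differed by -0.44 ± 0.12 (edgeR adjusted p = 0.279, DESeq2 adjusted p = 0.0182), and 6 of 25 solute carriers of the barrier, 4 of them lower at ZT18, had an unadjusted p under 0.05 (against 5.27%). Trpm7, a channel kinase that passes magnesium, had 811 to 1049 reads at ZT6 and 921 to 1074 at ZT18 (log2 difference 0.09 ± 0.13, interval -0.17 to 0.35), and 0 of 18 magnesium transport genes had an unadjusted p under 0.05, Zdhhc13 having the smallest.

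**Figure D5:**
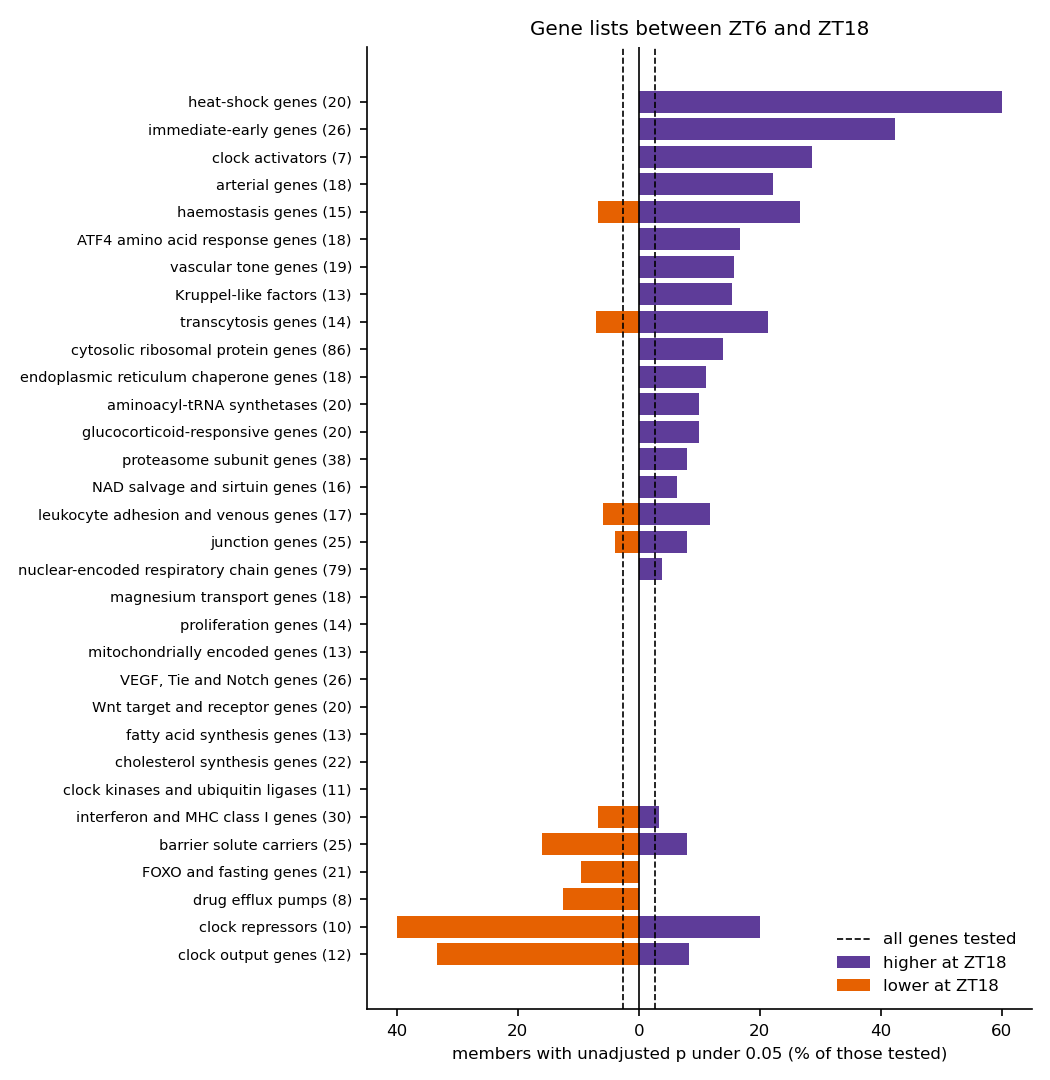
Share of each list's tested members (number in brackets) with an unadjusted p under 0.05, to the right when higher at ZT18 and to the left when lower; dashed lines mark the shares over all genes tested, 2.66% and 2.61%. Heat-shock genes have 12 of 20 members on the right, immediate-early genes 11 of 26, and clock repressors have 4 of 10 on the left.

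In lists of the vessel wall, edgeR called 0 members, and the counts with an unadjusted p under 0.05 are given against 5.27% of all genes. Arterial genes had 4 of 18, with Vegfc at 1.19 ± 0.38 (edgeR adjusted p = 0.565; 0.34 ± 0.46 in controls and 2.12 ± 0.49 in mutants, interaction adjusted p = 0.991), vascular tone genes 3 of 19, with the prostaglandin synthase gene Ptgs2 at 0.62 ± 0.21, transcytosis genes 4 of 14, with the caveolar coat gene Cavin1 at 0.33 ± 0.11, and junction genes 3 of 25, with the tricellular junction gene Lsr at 0.34 ± 0.12. Leukocyte adhesion and venous genes had 3 of 17 (Ch25h at 1.21 ± 0.46), Kruppel-like factors 2 of 13 (Klf4 at 0.28 ± 0.13) and interferon and MHC class I genes 3 of 30 (Ifit2 at -0.80 ± 0.19, edgeR adjusted p = 0.161, DESeq2 adjusted p = 0.0305). FOXO and fasting genes had 2 of 21, the lipase inhibitor gene Angptl4 at -1.28 ± 0.37 and the fatty acid importer gene Cpt1a, named after its value was seen, at -0.42 ± 0.13, and NAD and sirtuin genes 1 of 16, Nadsyn1 at 0.92 ± 0.41. Cholesterol synthesis (22 tested), fatty acid synthesis (13), VEGF, Tie and Notch (26), Wnt (20), proliferation (14) and mitochondrially encoded genes (13) had 0, with Dhcr7, Srebf1, Dll1, Sfrp1, Mki67 and mt-Co3 having the smallest p of their lists.

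Markers of other cell types were tested gene by gene as well, and 0 were called by edgeR. Mal, a myelin gene, had 2163 to 2760 reads at ZT6 and 3128 to 4129 at ZT18 (log2 difference 0.48 ± 0.11, edgeR adjusted p = 0.189), and Mal was past the threshold with DESeq2 (adjusted p = 0.00610). Oligodendrocyte markers had 2 of 10 members with an unadjusted p under 0.05, against 5.27% of all genes. Pericyte and smooth muscle markers had 4 of 13, all 4 higher at ZT18 (Tagln at 0.73 ± 0.22). Of the 13, 12 lay above 0, against 7601 of all 15493 genes. The list median was 0.41 in controls, with 6 members at an unadjusted p under 0.05 (against 3.39%), and 0.03 in mutants, with 1 (against 6.59%), and 4 of the 13 had an unadjusted interaction p under 0.05 (against 4.47%). Microglial markers had 2 of 12 (C1qb at 0.91 ± 0.31) and astrocyte markers 2 of 11, Gja1 at -0.40 ± 0.14. Endothelial markers had 3 of 18, with Ly6a at 0.43 ± 0.12. Neurons (Stmn2), fibroblasts (Pdgfra), red blood cells (Hbb-bs) and blood leukocytes (Cd163) had 1 each, and choroid plexus and ependyma (Foxj1) had 0. Myelin removal, CD90 depletion and the CD31 sort act against oligodendrocytes, neurons, fibroblasts and T cells. With the summed markers of all cell types other than endothelium as a covariate, edgeR called 30 genes over both genotypes, against 9 without it. Of those 9, 8 kept their call. The heat-shock median was then 0.40 against 0.52, and 5 immediate-early genes were higher at an unadjusted p under 0.05 against 11. The part of each cell type alone was not tested.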

How the data were processed

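RNA-seq libraries of brain cells sorted for CD31 were analysed, 8 of 24 in all, 2 control and 2 mutant mice at each of ZT6 and ZT18, grouped by the sample labels. The deposited values are counts: the authors aligned reads to GRCm38 with STAR 2.5.3a (merged with SAMtools 1.3.1, per the labels), and PORT normalized them to like totals, so the original depth is not in them.

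A gene entered the tests (15493 of 53465) when 6 of the 12 libraries of either genotype held a minimum of 5 reads. Its counts were compared by edgeR 4.0.16 under R 4.3.3 (scaling by TMM, quasi-likelihood F test, Benjamini-Hochberg adjusted p under 0.05), with genotype and time as factors or with 4 groups; SE is the log2 difference divided by the square root of F. The biological coefficient of variation was 41.6%. Marker sums were compared by exact permutation over 70 arrangements. Each library was 1 mouse, so p-values rest on the spread between mice. In edgeR each gene's variance was estimated partly from the other genes, so a p-value does not measure that gene's own spread alone. The steps were tested on simulated data. DESeq2 1.42.0, limma-voom (limma 3.58.1), other scalings, filters and covariates were alternatives. Members and gene lists were chosen with earlier results of these data known. Named genes were the calls (up to 12 a side, 5 within a genotype), the clock lists, up to 4 calls or the smallest p of each other list, and Trpm7, Abcb1a, Abcg2 and Slc7a5; others are marked, and 1 gene of the clock lists is not reported here. Promoters are from RefSeq and gene positions from GENCODE vM21.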

Additional observations from a re-analysis of the deposited data

Results flagged for a closer look

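Of 42 groups of 4 libraries examined (9 called genes and 12 library properties at each time), 3 held a library far from the rest by Dixon's test. Chance alone flags about 1 in 20 when the 4 come from 1 population. Each group here mixed 2 control and 2 mutant libraries, so that rate is a rough guide only. Control ZT18 replicate 2 had 282 reads of Nr1d1 against 43 in the other control ZT18 library and 19 and 12 in the mutants. Mutant ZT6 replicate 1 had 2290 CPM of astrocyte markers against 1559 to 1630 in the other ZT6 libraries. Mutant ZT18 replicate 2 had 850 CPM of choroid plexus and ependymal markers against 527 to 574, of which Ttr made up 93.4%.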

How the results depend on the processing

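Depth limits genes with few reads, and 2 mice per group and time limit every comparison within a genotype. Over both genotypes, with 9 genes in the main comparison, DESeq2 called 37, limma-voom 0 (889 at an unadjusted p under 0.05), a filter of 5 reads in 2 of the 8 libraries 5, a filter of 1 read in any library 62, all 24 libraries in 12 groups 5, a covariate of other cell type markers 30, one of mitochondrially encoded genes 25 and one of sex, added after the data were seen, 5. For controls (4 genes) the counts were 8 with DESeq2, 0 with limma-voom, 31 with the filter of 1 read, 1 with all 24 libraries, 18 with cell type markers and 10 with mitochondrial genes. For mutants (0 genes) they were 18 with DESeq2, 30 with the filter of 1 read, 1 with all 24 libraries, 13 and 3 with these covariates, and for the interaction (0 genes) 10 with the filter of 1 read and 1 with either covariate. Leaving out each library in turn gave 5 to 16 genes over both genotypes, 0 to 15 in controls, 0 to 24 in mutants and 0 to 2 for the interaction. In controls Tef, Cdkn1a and Cdk5rap1 were lost without either library of either control group (adjusted p up to 0.606) and Dbp without control ZT18 replicate 1 (adjusted p = 0.0621). Leaving out a control library sets 1 library against 2 in controls, the lone library is assumed to vary like the other groups, and those losses do not show that a call depended on that library. The cause was not tested. In all 19 alternatives the 9 genes kept their direction, and the heat-shock median stayed between 0.39 and 0.62. These alternatives refit all or most of the libraries in which the 9 genes were chosen, so the kept direction is not independent support.

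With the replicate number as a block, 37 genes were called over both genotypes, 26 in controls, 28 in mutants and 1 for the interaction. The numbers do not pair the mice by design, and the deviations of same-numbered libraries correlated across genes at -0.04 to 0.19 between groups, so the block is a hint only; replicate 1 libraries had Xist in 3 of 4 cases and replicate 2 libraries in 1 of 4.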
